A study of Mus musculus with 4 samples.

Results

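Of 29656 retained nuclei of the E16.5 (embryonic day) mouse medial cortex, 141, or 0.475%, were assigned to the choroid plexus epithelium by a rule on *Ttr*. A nucleus was a member when its barcode held 1500 to 60000 transcripts, at least 10 *Ttr* transcripts, at most 1 transcript of *Gad1* and *Gad2* together and at most 4 of *Col1a1* and *Col1a2* together. The members were thus chosen by *Ttr* in the same nuclei that are described here, so their *Ttr* level is a description and no finding. The comparison populations were 490 cortical hem nuclei, with at least 2 *Lmx1a* and fewer than 10 *Ttr* transcripts, and the 29025 other retained nuclei.

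The choroid plexus is the sheet of epithelium that makes cerebrospinal fluid. In the telencephalon it arises at the dorsal midline next to the cortical hem, a Wnt and BMP source that also gives rise to Cajal-Retzius neurons. Its epithelial cells carry tufts of motile cilia, move ions and water into the ventricle, import nutrients from the blood and secrete carrier proteins, above all transthyretin, the product of *Ttr*. Differentiation runs from dividing cells that still resemble the hem to postmitotic multiciliated cells.

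The medial neocortex of E16.5 embryos on a C57BL/6J background gave 2 control libraries of genotype *Sst-Cre/tdTomato*, called C1 and C2 after their replicate numbers, and 2 knockout libraries of genotype *Sst-Cre/tdTomato/Dnmt1 loxP2*, called KO1 and KO2. Each library was a single brain, so a group is 2 brains. Every animal, controls included, carried Cre driven by *Sst* and the tdTomato reporter, and the KO animals carried loxP-flanked *Dnmt1* in addition, which Cre removes in *Sst*-expressing postmitotic interneurons. C2 was labelled batch 2 with 2 sublibraries, and the other libraries were labelled batch 1 with 8 each. In KO2, 1 *Sst* transcript was found in the 133 members, and 297 were found in all 12064 retained nuclei. *Sst* was thus sparse throughout that library, and the count in members cannot show whether Cre acted in them. Cre activity in the members was not tested.

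The members were very unevenly spread over the libraries. KO2 held 133 of them, or 94.3%, KO1 held 2, C1 held 3 and C2 held 3. As a share of retained nuclei this was 1.10% of 12064 nuclei in KO2 (95% exact binomial interval 0.924 to 1.31%), against 0.0355% of 5640 in KO1 (0.00429 to 0.128%), 0.0426% of 7047 in C1 (0.00878 to 0.124%) and 0.0612% of 4905 in C2 (0.0126 to 0.179%). The intervals cover counting error only. The interval of KO2 lay above those of both controls and of KO1, and the intervals of the other 3 libraries overlapped.

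The genotype means were 0.569% for knockout and 0.0519% for control (n = 2 libraries each), a difference of 0.517 percentage points that 1 library set. A two-sided exact permutation test over libraries gave p = 1.00, with 0.333 the smallest p that 2 against 2 libraries allow. Without KO2 the difference changed direction, at -0.0164 percentage points. Within KO2 the members came from all 4 first-round wells, at 0.971 to 1.23% of the retained nuclei of a well, and from all 8 sublibraries, at 0.936 to 1.34%. No retained barcode was shared between libraries.

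**Figure D1:**
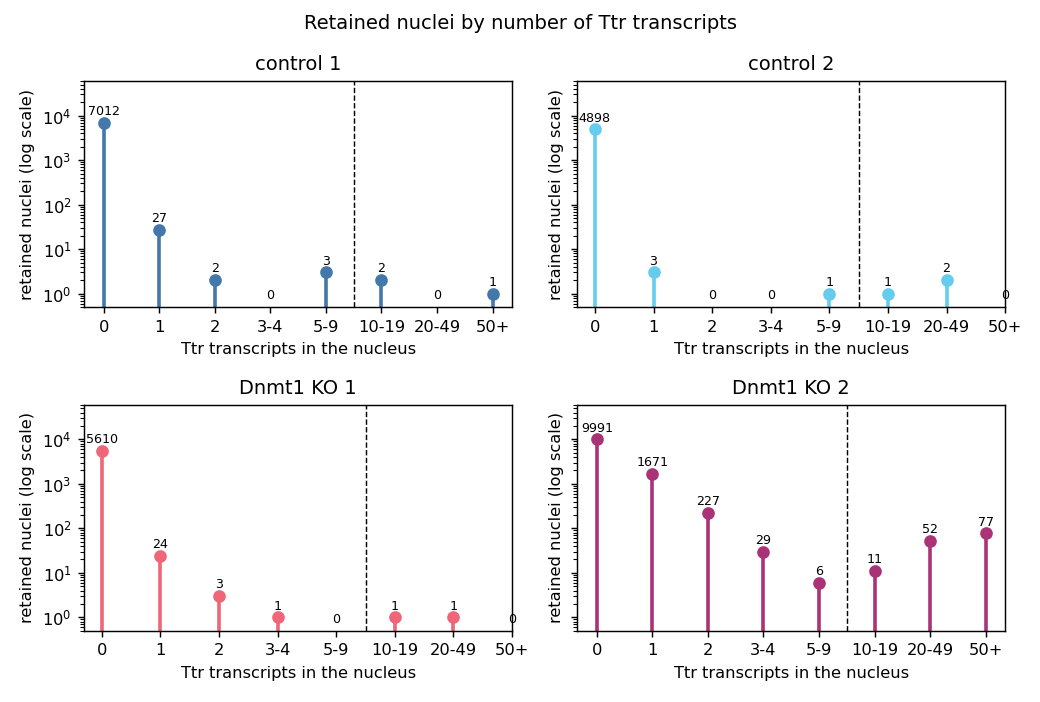
Number of retained nuclei (log scale) by the number of *Ttr* transcripts in the nucleus, in each of the 4 libraries; the dashed line marks the limit of 10 transcripts, before the limits on *Gad* and *Col1a* genes. KO2 has 140 nuclei to the right of the line, where the other libraries have 2 or 3, and it also has 1671 nuclei with a single *Ttr* transcript against 3 to 27 in the other libraries.

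*Ttr* separated the members in KO2 with few nuclei near the limit. They held 10 to 112 *Ttr* transcripts (median 51). Over all libraries, 10 retained nuclei had 5 to 9 *Ttr* transcripts and 10 members had 10 to 14. Among the 10 just outside, 7 had *Otx2*, 2 had *Folr1* and 7 had at least 2 *Lmx1a* transcripts, and among the 10 just inside these numbers were 7, 1 and 10. Of 148 retained nuclei with at least 10 *Ttr* transcripts, 7 were left out by the *Gad* or *Col1a* limits, all of KO2. A further 7 such barcodes lay above 60000 transcripts, 5 of KO2 and 2 of C1. All barcodes above that limit held 1.35% and 4.37% of the transcripts of KO1 and KO2, and 19.2% and 29.4% of those of C1 and C2.

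*Ttr* transcripts were also widespread at low level in that library. Among its other retained nuclei, 16.1% held at least 1 *Ttr* transcript, against 0.439%, 0.387% and 0.0619% in KO1, C1 and C2. The *Ttr* level of those other nuclei was 15.5 CPM (transcripts of the gene per 1000000 transcripts of the summed nuclei), at a median depth of 12336 transcripts, while the members reached 3980 CPM at a median depth of 11066. Those other nuclei included the 7 left out above by the *Gad* or *Col1a* limits, with 26 to 86 *Ttr* transcripts each. The origin of the low *Ttr* counts in the rest was not tested, and no expression was read from single *Ttr* transcripts. Of the *Ttr* transcripts in retained nuclei of this library, 71.2% lay in the members.

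Nuclei with fibroblast, endothelial and macrophage markers were likewise more frequent in KO2. Nuclei with at least 5 transcripts of 6 fibroblast markers made up 2.30% of it, against 0.142 to 0.285% of the other libraries. The share with at least 5 transcripts of 5 endothelial markers was 2.34% against 0.816 to 1.21%, and that with 5 macrophage and microglia markers 0.423% against 0.106 to 0.199%. Hem nuclei followed another order, at 3.03% in KO1, 1.66% in KO2, 0.922% in C1 and 1.10% in C2. For each hem nucleus there were 0.665 members in KO2 and 0.0117 to 0.0556 in the other libraries. KO1, which shares the genotype of KO2, had 0.142% nuclei with fibroblast markers and 0.816% with endothelial markers. Only KO2 was of this kind, and the part of genotype in its makeup was not tested.

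**Figure D2:**
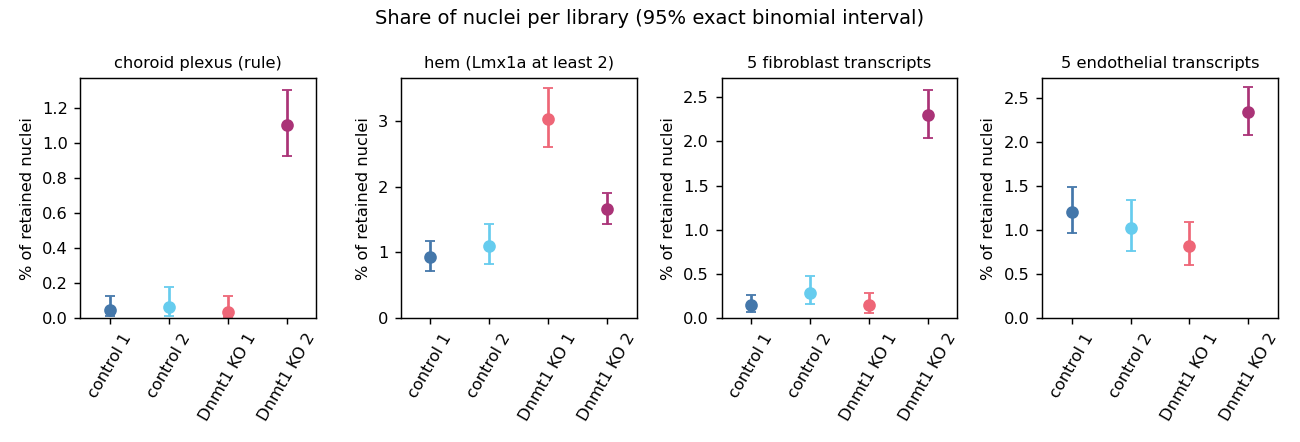
Share of retained nuclei (percent) in each library for nuclei chosen by the choroid plexus rule, hem nuclei, and nuclei with at least 5 fibroblast or endothelial marker transcripts; points are libraries and bars are 95% exact binomial intervals. KO2 is highest for choroid plexus (1.10%), fibroblast (2.30%) and endothelial markers (2.34%), and KO1 is highest for hem (3.03%).

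The label was set beside *Otx2* and *Folr1*, which the rule did not use. Both were given as markers beforehand, with earlier results of these data known, so their presence is a description and no independent check. *Otx2*, a homeobox factor needed for choroid plexus development, was detected in 123 of the 133 members of KO2, *Folr1*, a folate receptor of this epithelium, in 93, and 6 had neither. *Otx2* reached 355 CPM (95% exact Poisson interval 327 to 385) in members, 34.3 CPM in hem and 0.502 CPM in the other nuclei of that library. *Folr1* reached 122 CPM (106 to 140), 3.75 CPM in hem and 0.341 CPM in the others. The others included the 7 nuclei left out by the *Gad* or *Col1a* limits, with 2 to 7 *Otx2* and 0 to 7 *Folr1* transcripts each. *Otx2* lies at chr14:48894099-48911276 on the minus strand and *Folr1* at chr7:101507537-101520014 on the minus strand (GRCm39), and a long noncoding RNA, *Otx2os1*, overlaps *Otx2* on the opposite strand, as *Anapc15* does *Folr1*. Since strand use in the counting was not stated, reads of each pair cannot be told apart, and *Otx2os1* itself stood at 2033 CPM in members and 219 CPM in hem.

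Across genes, the members were set against the 200 hem nuclei of the same library by the ratio of summed CPM. Because *Ttr* chose the members among these same nuclei, this is a description with no test, and a gene was counted as apart at 4-fold among genes with at least 50 CPM in either sum. Of 4373 such genes, 476 were higher in members (10.9%) and 285 lower (6.52%), with a median fold of 1.02. Against the 11731 other nuclei, 639 of 4387 genes were higher (14.6%) and 375 lower (8.55%). The counts over gene lists in the following paragraphs stand beside the 10.9% higher and 6.52% lower of the 4373 compared genes. A listed gene could pass the minimum of 50 CPM through the members alone, and such a gene then had to be higher in them, so these counts are descriptions of the lists and give no support.

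Leaving aside *Ttr*, which the rule used, 8 of 11 choroid plexus markers were at least 4-fold above hem and the other 3 were under 50 CPM. *Htr2c*, the serotonin 2C receptor at chrX:145745509-145980286 on the plus strand (GRCm39), was the most abundant at 8708 CPM (8566 to 8851), 677-fold above hem (95% interval 511 to 919). It was found in 95.5% of members, with 0 to 353 transcripts and a median of 86. *Ttr* stood at 3980 CPM, *Clic6*, a chloride channel protein, at 686 CPM, *Slc4a5*, a bicarbonate transporter, at 380 CPM and *Enpp2*, the secreted enzyme autotaxin, at 377 CPM. *Kcnj13*, an inward rectifier potassium channel of the apical membrane, reached 108 CPM. *Aqp1*, the water channel of the mature epithelium, was at 46.6 CPM in 30.8% of members, *Kl* at 13.3 CPM and *Prlr*, the prolactin receptor, at 4.84 CPM.

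**Figure D3:**
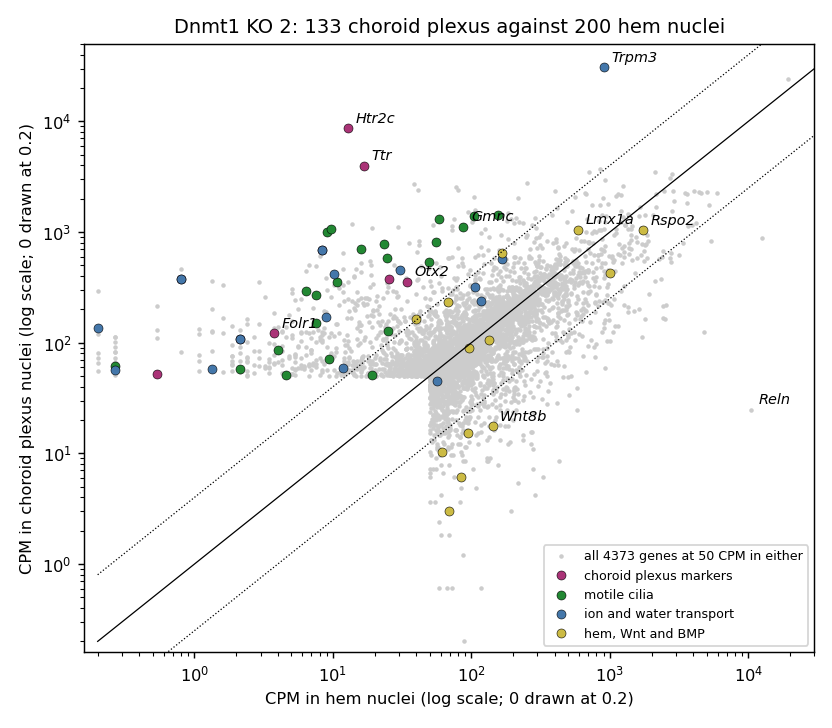
Level of each of 4373 genes in 133 choroid plexus nuclei (vertical axis, CPM, log scale) against 200 hem nuclei (horizontal axis, CPM, log scale) of KO2; the solid line is equality and the dotted lines are 4-fold. The motile cilia genes but 1, and all 9 plotted marker genes, *Ttr* included, lie above the upper dotted line, *Wnt8b* and *Reln* lie below the lower one, and *Rspo2* and *Lmx1a* lie between them.

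Of all lists, motile cilia had the most genes above hem. Of its 28 listed genes, 21 were at least 4-fold above hem, 0 were lower, 1 lay between and 6 were under 50 CPM. Their summed level was 12440 CPM in members, 696 CPM in hem and 128 CPM in the others. Axonemal dynein heavy chains were prominent, with *Dnah9* at 1414 CPM, *Dnah6* at 1075 CPM and *Dnah11* at 813 CPM. *Cfap44*, *Spef2* and *Cfap54*, which encode proteins of the ciliary axoneme, stood at 1392, 1324 and 1117 CPM. *Dnah6* was 111-fold above hem (80.2 to 160) and *Dnah9*, which hem nuclei also contained at 156 CPM, 9.08-fold (8.29 to 9.97).

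The upstream regulators of multiciliated cells were present together with the structural genes. *Gmnc*, which starts the multiciliation programme, stood at 1116 CPM, was found in 99 of the 133 members and was 12.5-fold above hem (11.1 to 14.1). *Mcidas*, which acts after *Gmnc* and is switched on only briefly, was found in 16 members, and *Deup1*, a component of the deuterosomes that multiply centrioles, was found in all 16 of them and in 40 of the other 117. *Foxj1*, the forkhead activator of motile cilia genes, was found in 47 members at 42.4 CPM. *Trp73*, another regulator of multiciliation, was at 173 CPM in members and 425 CPM in hem, where Cajal-Retzius neurons also express it. *Rfx3*, a ciliary transcription factor, stood at 2214 CPM in members and 1153 CPM in hem, a 1.92-fold ratio (1.84 to 2.01).

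RFX factors bind promoters of ciliary genes, so the letters GTTGCC, which form one arm of their motif, were searched on both strands of RefSeq promoters (GRCm38.p6, 250 bases before to 50 after each start). Of the 28 motile cilia genes, 22 had a promoter in that table, and 10 of these held the letters, or 45.5%, against 14.1% of 27025 genes with a promoter. The letters TAATCC, a motif of OTX2, were in 1 of the 22 (8.14% of all genes), and the forkhead letters GTAAACA in 2 (4.05%). The letters were also frequent in the promoters of other lists, in 6 of 14 ion and water transport genes (42.9%), 6 of 15 midline and choroid plexus transcription factors (40.0%), 4 of 15 hem, Wnt and BMP genes (26.7%) and 2 of 7 markers (28.6%). A match is a description of these letters and not a bound site. The windows, printed in the direction of the gene, show one match in each of 4 cilia genes that members held at 61.8 to 1392 CPM, with the searched letters (or their reverse complement GGCAAC) in capitals:
Deup1 (chr9:15627908-15627937, minus strand): ccgcgtctccatGGCAACccactgggaacc
Cfap44 (chr16:44394768-44394797, plus strand): ggacgttgctatGGCAACcgcagtaaacgg
Dynlrb2 (chr8:116504952-116504981, plus strand): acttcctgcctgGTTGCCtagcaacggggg
Tekt1 (chr11:72361900-72361929, minus strand): tcttctaactagGGCAACgttgcgtccgtc

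Transport genes were the next largest group. Of 25 ion and water transport genes, 11 were at least 4-fold above hem, 0 were lower, 4 lay between and 10 were under 50 CPM. *Trpm3*, a cation channel with long introns, stood at 30858 CPM and was found in every member. The part of intron reads in that count was not tested. *Car12*, a carbonic anhydrase, reached 414 CPM, and *Atp2b3*, a plasma membrane calcium pump, 451 CPM. *Kcne2*, a potassium channel subunit, reached 135 CPM with 0 transcripts in hem, which is at least 168-fold higher against a limit of 3 counts over the hem sum (lower end of the two-sided 95% interval 136-fold). *Slc12a2*, the cotransporter NKCC1, was 2.01-fold above hem (1.75 to 2.31). Of 24 carriers of nutrients, hormones and organic anions, 5 were higher, 6 lay between and 13 were under 50 CPM. The higher ones included *Slc23a2*, a vitamin C transporter at 581 CPM, *Slc2a12*, a sugar transporter at 184 CPM, *Folr1* and *Abcc4*, an efflux pump at 69.0 CPM.

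Apart from *Ttr*, the secreted factors and receptors contributed 6 genes at least 4-fold above hem and 1 below, of 23 listed, of which 11 were under 50 CPM. Besides *Htr2c* and *Enpp2* these were *Ace*, angiotensin converting enzyme, at 64.2 CPM, *Col18a1* at 62.4 CPM, *Bmp7* at 163 CPM and *Sostdc1*, a BMP and Wnt modulator, at 52.1 CPM. *Wnt5a* was the one below. Tight junction genes were mostly sparse, since 12 of 15 were under 50 CPM. *Cldn1* stood at 81.7 CPM against 1 transcript in hem, a ratio whose lower bound was 53.9-fold, while *Tjp1*, a general junction scaffold, was at 159 CPM in members and 291 CPM in hem.

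Genes of the hem itself divided. Of 22 hem, Wnt and BMP genes, 1 was at least 4-fold higher in members (*Bmp7*), 5 were lower, 7 lay between and 9 were under 50 CPM. The lower ones were *Wnt8b* (17.6 CPM in members, 142 in hem), *Wnt5a* (15.1 and 94.0), *Wnt7b* (10.3 and 61.1), *Rspo1* (6.05 and 84.6) and *Wnt3a* (3.03 and 69.1). *Lmx1a*, the roof plate factor that defined the hem nuclei, was kept at 1049 CPM against 588 CPM, and 130 of the 133 members had at least 2 transcripts. *Rspo2* and *Rspo3*, secreted enhancers of Wnt signalling, stood at 1035 and 426 CPM, and *Lef1*, a Wnt effector, at 649 CPM.

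Among genes outside these lists, the largest folds over hem belonged to *Tmem72* (464 CPM, 578-fold, 197 to 2809), *Scara5*, a ferritin receptor, and *Dnah3* (each 113 CPM and 1 hem transcript, a 423-fold ratio) and the long noncoding RNA *2010001K21Rik* (213 CPM, 398-fold, 109 to 3298). *Cdh3*, P-cadherin, stood at 293 CPM with 0 transcripts in hem, at least 365-fold higher against the limit of 3 counts (lower end of the two-sided 95% interval 295-fold). Apart from *Cdh3* these ratios rested on 1 to 3 hem transcripts, so their upper bounds are wide. The further genes among the 25 largest folds included *Elovl7*, *Or10k2*, *Cldn1*, *4930567H12Rik*, *Odad2*, *Ccdc113*, *4930556M19Rik*, *Gpr39*, *Wdr72*, *Dynlrb2*, *G630093K05Rik*, *Trpv4*, *Col8a1*, *Six3os1*, *Tmem26* and *Kcne2*, beside *Htr2c*, *Slc4a5* and *Ttr*. Several of these genes overlap a named gene on the opposite strand and are uncertain for that reason, namely *Six3os1* (*Six3*), *4930556M19Rik* (*Rai14*), *Dnah3* (*Lyrm1*), *2010001K21Rik* (*Nhlrc1*) and *Gpr39* (*Lypd1*). The same holds for *Car12* (*Aph1b*) above, and for *Tmem163* (*Mgat5*) and *Elapor1* (*Cfap276*) among the lowest folds below.

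The 10 lowest folds were led by *Reln*, which Cajal-Retzius neurons secrete, at 24.8 CPM in members and 10482 CPM in hem. *Eya2*, *Gm29398*, *Ebf2*, *Cnmd*, *Nhlh2*, *Ndnf*, *Elapor1*, *Ebf3* and *Tmem163* followed, at 0.605 to 8.48 CPM in members and 58.1 to 427 CPM in hem. The *Lmx1a* definition of hem nuclei took in nuclei rich in *Reln*: 108 of the 200 held at least 10 *Reln* transcripts. At least 5 transcripts of *Wnt3a*, *Wnt2b*, *Wnt8b* and *Rspo1* to *Rspo3* were held by 164. Both limits were met by 93, so these counts do not divide neurons from hem cells. With hem limited to the 84 nuclei with at most 5 *Reln* transcripts, a comparison added after seeing the data, 420 genes were higher and 247 lower, of which 388 and 126 were shared with the counts above. Of the 21 cilia genes, 21 were among the higher genes of this comparison too, and *Wnt3a*, *Wnt8b*, *Wnt5a*, *Wnt7b* and *Rspo1* stayed lower.

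Most defining markers of endothelium, oligodendrocyte precursors, macrophages and fibroblasts were at or near 0 in the members of KO2, while excitatory neuron and interneuron genes, and single genes of the other lists, were not. *Slco1a4*, a transporter listed for endothelium and known in choroid plexus as well, was at 602 CPM while *Cdh5*, *Cldn5*, *Flt1* and *Pecam1* were at 0.605 to 5.45 CPM. *Kdr*, another endothelial gene, was at 67.2 CPM in members. *Pdgfra* was at 125 CPM, with *Olig1*, *Olig2* and *Sox10* at 0. *Cx3cr1* was at 32.1 CPM, with *Csf1r* at 1.82 CPM and *Ptprc* at 0. Of the fibroblast genes that the rule did not limit, *Lum*, *Foxc1*, *Foxd1* and *Tbx18* were at 0. The 8 interneuron genes, of which the rule limited *Gad1* and *Gad2* in members only, summed to 1386 CPM in members, 1336 CPM in hem and 2539 CPM in the others. *Erbb4* made up 1369 CPM of the sum in members. The 12 excitatory neuron genes summed to 2113 CPM (5785 in hem, 7872 in the others), and 19 of the 133 members held at least 5 transcripts of 5 of these genes together. Without these 19 nuclei, 571 genes were higher than hem and 499 lower, against 476 and 285 with them. Scrublet called 11 members doublets, and without all doublet calls 529 genes were higher and 350 lower. The part of other cells in these counts was not tested.

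Genes of hindbrain position were nearly all undetected. Of 12 hindbrain and cerebellar genes, 11, including the Hox genes *Hoxa2* to *Hoxa4*, *Hoxb2* to *Hoxb4* and *Hoxd3*, were at 0 of 1651550 transcripts, which allows up to 1.82 CPM each at a limit of 3 counts. *Barhl1* had 9 transcripts. The 12 genes were as sparse elsewhere in KO2, summing to 5.45 CPM in members, 1.07 CPM in hem and 0.376 CPM in the others. Of 8 telencephalic genes, 0 were 4-fold higher than hem, 0 were lower, 3 lay between and 5 were under 50 CPM. They summed to 208 CPM in members and 412.5 CPM in hem. Among them *Emx2* and *Lhx2* were at 3.63 and 38.8 CPM, against 38.6 and 106 CPM in the hem nuclei of the same library.

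Imprinted genes depend on DNA methylation for expression from one parental copy. Among them *Grb10*, a growth factor receptor adaptor, was 14.4-fold above hem, at 1040 CPM and in 95.5% of members. *Meg3* and *Rian*, noncoding RNAs of one imprinted cluster, were at 232 and 73.9 CPM in members and 893 and 330 CPM in hem, and *Meg3* did not reach 4-fold. Of 16 imprinted genes, 1 was higher, 2 were lower (*Rian* and *Snrpn*), 7 lay between and 6 were under 50 CPM, beside 10.9% higher and 6.52% lower over all genes. Of 10 DNA methylation genes, 6 reached 50 CPM and 0 of these were 4-fold apart, and 4, *Dnmt1* among them, were under 50 CPM. *Dnmt1* itself was at 29.1 CPM in members (21.4 to 38.5; 48 transcripts in 29 nuclei), 49.3 CPM in hem and 47.6 CPM in the others.

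The 8 members of the other 3 libraries were the only ones against which those of KO2 could be set, at 104868 transcripts in all. Their *Ttr* counts were 13 and 20 in KO1, 10, 14 and 62 in C1, and 12, 36 and 43 in C2. All 8 had *Otx2* and at least 8 *Lmx1a* transcripts, but *Lmx1a* also defined the hem nuclei, and *Otx2* was found in 32.4% of all 490 of those. In the same order, *Htr2c* counts were 0 and 7 in KO1, 1, 64 and 262 in C1, and 2, 43 and 54 in C2. Choroid plexus markers without *Ttr* had a median of 28.7 transcripts per 10000 in the 8 and 112 in KO2 members. Whether some of the 8 are hem nuclei with *Ttr* was not tested, so the contrasts of the 8 with KO2 members are not known to lie within a single cell type. *Otx2* was at 315 CPM in the 8 (217 to 442) and overlapped the 355 CPM of KO2. *Folr1* was found in 1 of the 8, a KO1 nucleus with 6 transcripts, and in 0 of the 6 control members.

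The multiciliation genes were not detected in these 8 nuclei. *Gmnc*, *Mcidas*, *Trp73*, *Deup1* and *Foxj1* had 0 transcripts, where a limit of 3 counts allows up to 28.6 CPM, while KO2 members had 1116, 61.2, 173, 294 and 42.4 CPM. That limit and the intervals of the 8 nuclei count transcripts and leave out spread between nuclei. In KO2, *Mcidas* was found in 16 of 133 members, and 5 nuclei held 55 of its 101 transcripts, so 8 nuclei may hold none of such a gene. For *Gmnc* this is at least 39.0-fold higher in KO2 against that limit over the 8 nuclei, and the lower end of the two-sided 95% interval of the ratio was 31.7-fold. The summed motile cilia level was 1303, 888 and 2192 CPM in the members of KO1, C1 and C2, and 12440 CPM in those of KO2. *Spef2* was 17.4-fold higher in the latter (8.79 to 40.3) and *Enpp2* 39.5-fold (7.06 to 1562, on 1 transcript in the 8).

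Excitatory neuron transcripts, at 2113 CPM in the members of KO2 and 315 CPM in the 8, moved in the same direction, and their part was not tested.

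The summed hem genes showed the opposite order. The hem, Wnt and BMP genes summed to 11568, 8176 and 15728 CPM in the members of KO1, C1 and C2, against 3880 CPM in KO2. In the hem nuclei of KO2 they summed to 4339 CPM, below the members of KO1, C1 and C2. *Rspo2* was 5.16-fold higher in the 8 nuclei, at 5340 CPM (4907 to 5801), *Wnt8b* 22.3-fold, at 391 CPM (281 to 530), and *Rspo1* 55.1-fold, at 334 CPM (232 to 464). *Lef1* of the same list went the other way, at 391 CPM in the 8 and 649 CPM in KO2. The 12 radial glia genes summed to 982 CPM in the 8 nuclei and 453 CPM in KO2, a 2.17-fold ratio. *Erbb4*, listed with interneurons, was at 3862 CPM in the 8 and 1369 CPM in KO2, while *Lhx6* was at 0 in the 8. The rule limited *Gad1* and *Gad2* in members, so their low level was set in advance. The cell cycle genes summed to 1249, 2663 and 142 CPM in the members of KO1, C1 and C2, so that C2 lay below the 417 CPM of KO2. The part of dividing cells was not tested. These values compare single libraries with few nuclei, and no test of genotype within members was made because it needed at least 10 members in each library.

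**Figure D4:**
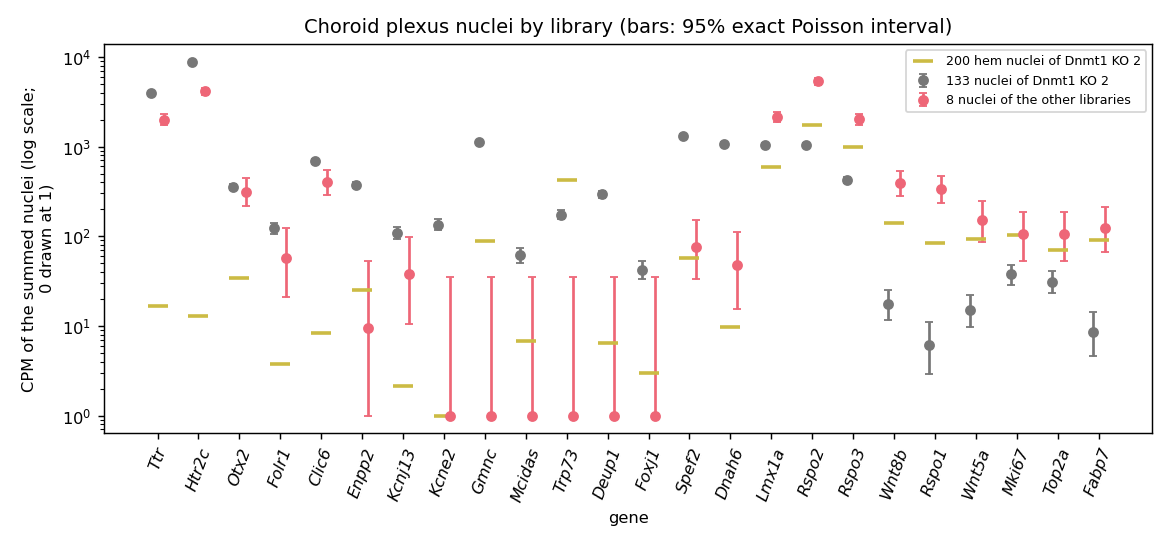
Level of 24 genes (CPM of summed nuclei, log scale) in the 133 members of KO2 (grey), the 8 members of the other libraries (red) and the 200 hem nuclei of KO2 (yellow marks). Bars are 95% exact Poisson intervals, which leave out spread between nuclei, and 0 is drawn at 1. *Gmnc* to *Foxj1* are at 0 in the 8 nuclei, and *Rspo2* to *Wnt5a* are higher in them than in the 133.

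The members of KO2 also varied widely among themselves. Their motile cilia level ran from 2.88 to 427 transcripts per 10000 of the nucleus (quartiles 80.9 and 182, median 136), and that of the 8 other members from 2.15 to 49.5 (median 11.8). Of the 133 nuclei, 23 lay at or below the highest of the 8. The hem, Wnt and BMP level without *Lmx1a* ran from 2.66 to 156 (median 24.1) in KO2 and from 41.4 to 226 (median 84.2) in the 8, and 21 of the 133 reached the lowest of the 8. The ranges overlapped for both lists, with the 8 nuclei at the low end for cilia and the high end for hem genes.

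Across the 133 nuclei, the cilia level had a Spearman correlation of -0.281 with the hem level and 0.359 with the level of ion and water transport genes without *Trpm3*. Its correlation with depth was -0.231. These nuclei share 1 library and the levels share one denominator, so the values are a description. The 34 members of KO2 without a *Gmnc* transcript had a median cilia level of 61.9 per 10000, an ion and water transport level of 21.8 and a hem level of 35.7, and the 99 with *Gmnc* had 143, 49.9 and 20.3. Median depths were 10743 and 11197 transcripts, and excitatory neuron genes were at a median of 4.68 per 10000 without *Gmnc* and 11.2 with it, whose part was not tested.

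**Figure D5:**
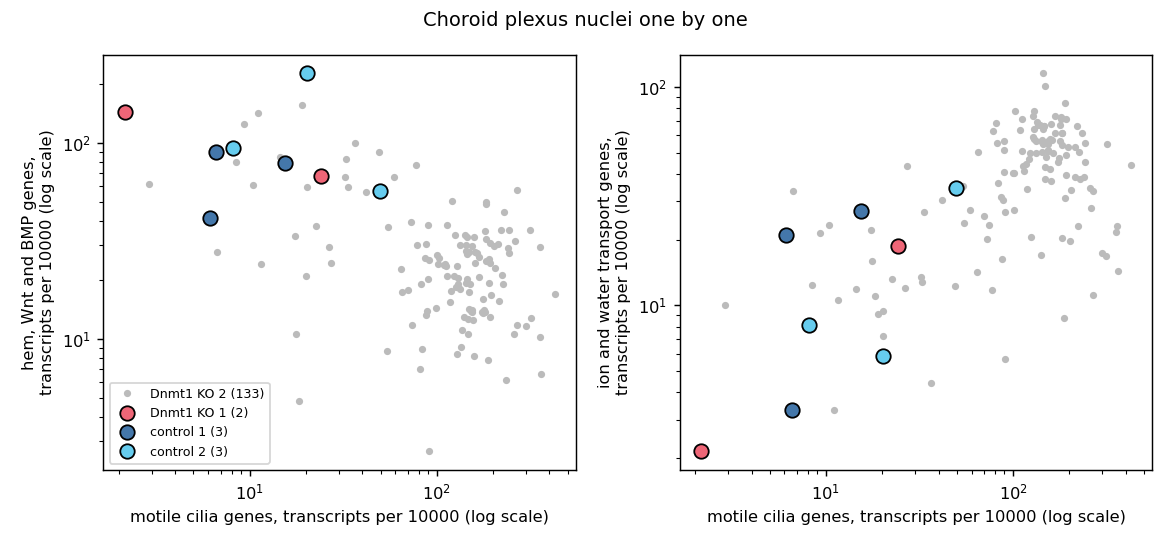
Each choroid plexus nucleus by its motile cilia level (horizontal axis, transcripts per 10000, log scale) and its hem, Wnt and BMP level (left) or ion and water transport level (right), both per 10000 on a log scale; grey points are the 133 nuclei of KO2 and large points the 8 of the other libraries. The 8 nuclei lie at 2.15 to 49.5 on the horizontal axis, where 23 of the 133 also lie at or below the highest of them.

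Cell cycle genes were at a median of 1.53 transcripts per 10000 in the members of KO2 and 1.76 in its hem nuclei. The 16 listed genes summed to 417 CPM in these members and 747 CPM in these hem nuclei, with up to 55.2 and 108 per 10000 in single nuclei. Of these genes, 5 reached 50 CPM, with 0 apart at 4-fold, and 11 were under it. *Mki67* or *Top2a* was found in 28 of the 133, and both in 9. The 5 nuclei with most *Mki67* held 41 of its 62 transcripts. Among the 8 other members, *Mki67* or *Top2a* was found in 3, and 1 nucleus of C1 held 10 transcripts of each.

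Genotype was tested on sums over all retained nuclei, which do not depend on the choice of members. At an adjusted p under 0.05, edgeR called 0 of 21516 genes (percent called 0), with 1612 at an unadjusted p under 0.05 (7.49%), and DESeq2 called 205 of 17761 (1.15%). *Ttr* was at 0.889 and 53.4 CPM in KO1 and KO2 and at 1.37 and 0.878 CPM in C1 and C2. The groups overlapped, and the log2 ratio of KO over control was 4.60 ± 1.80 (SE, n = 2 libraries each; edgeR adjusted p = 0.649). Without KO2 it was -0.35 ± 0.38, and without KO1 it was 5.58 ± 0.24. In each of these fits the knockout arm was a single library, assumed to vary like the controls. Since *Ttr* defined the members and most of them lay in KO2, these ratios describe that library and give no support. Without the member nuclei the log2 ratio was 4.83 ± 1.82 (edgeR adjusted p = 0.668), with the other nuclei of KO2 holding *Ttr* at the 15.5 CPM given above. Over the alternatives with all 4 libraries the adjusted p (edgeR or DESeq2) ran from 0.138 to 0.812. In such sums more cells of a type and more RNA per cell cannot be told apart. Taken nucleus by nucleus, the shares were those given above. The members' own *Ttr* level was 1792 to 2313 CPM in the other libraries and 3980 CPM in KO2. That level cannot decide between them, since *Ttr* chose the members and the other libraries held few.

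For *Otx2* the groups did not overlap. It was at 3.96 and 4.62 CPM in the KO libraries and at 1.03 and 0.585 CPM in the controls, so that both KO libraries lay above both controls. *Otx2os1*, whose reads cannot be told apart from those of *Otx2*, had the same order. It was at 27.8 and 25.7 CPM in KO1 and KO2 and at 7.89 and 2.90 CPM in C1 and C2. Without the member nuclei the log2 ratio of *Otx2* was 1.86 ± 0.67 (edgeR adjusted p = 0.668). Over all retained nuclei the log2 ratio of *Otx2* was 2.40 ± 0.32 (SE, n = 2 libraries each; edgeR unadjusted p = 0.000829, adjusted p = 0.649). DESeq2 gave 2.42 ± 0.36 with an adjusted p of 2.4e-08. Over the alternatives with all 4 libraries the adjusted p (edgeR or DESeq2) ran from that value to 0.771. The *Otx2* transcripts lay in different nuclei: 73.4% of those of KO2 were in members, whereas in KO1 it was 2.35%, with 51.7% in hem nuclei. *Lmx1a* was at 23.5 and 24.2 CPM in the KO libraries and 9.29 and 10.0 CPM in the controls (log2 ratio 1.29 ± 0.11, edgeR adjusted p = 0.631), beside the higher share of hem nuclei in both KO libraries.

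Of the 12 choroid plexus markers, 0 passed the adjusted threshold in edgeR and 4 were higher at an unadjusted p under 0.05 (*Otx2*, *Folr1*, *Clic6* and *Kl*). Of 26 motile cilia genes tested, 0 passed and 11 were higher at an unadjusted p under 0.05, against 7.49% of all genes at that p in either direction. Other lists moved likewise: of 20 hem, Wnt and BMP genes, 13 were higher and 1 lower at that p. Higher were also 12 of 23 secreted factors and receptors, 9 of 16 midline transcription factors and 4 of 7 Cajal-Retzius genes, with 0 lower. Of 12 excitatory neuron genes, 0 were higher and 2 lower. *Gmnc* was at 2.88 and 14.7 CPM in the KO libraries and 1.21 and 0.718 CPM in the controls (log2 ratio 3.20 ± 0.85, edgeR adjusted p = 0.649, or 0.0405 without the filter on low counts), and hem nuclei held 74.7% of it in KO1. *Dnmt1* was at 61.8 and 47.5 CPM in the KO libraries and 59.6 and 56.0 CPM in the controls (log2 ratio -0.10 ± 0.14, edgeR adjusted p = 0.846), over all cell types together. With KO2 as the lone knockout library the log2 ratios were 3.30 for *Folr1* and 3.94 for *Gmnc*. With KO1 as the lone one they were 1.25 and 1.57, and without the member nuclei 1.18 and 1.85. KO2 was already known to hold most members, which carried 74.0% of its *Folr1* and 72.5% of its *Gmnc*.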

How the data were processed

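Nuclei from snap-frozen medial neocortex, isolated on a sucrose gradient, were barcoded with Evercode (split-pool indexing in wells). Trailmaker and the GRCm39 genome were used by the authors to make the deposited files, which hold raw counts for every barcode and gene without a filter. The submitters' processing notes list R 4.4.1 and Seurat 5.0.1.9001. The annotation release and the strand setting of the counting were not given in the sources used here. The files held 1127729 barcodes and 56884 genes, and 0 columns were without a sample.

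Barcodes with 1500 to 60000 transcripts were retained (median 12274 to 21140 transcripts a library, the highest in control replicate 2), of 96455278 to 201141704 transcripts per file. The members and gene lists were chosen with earlier results of these data known. Counts were summed per library and population and given as CPM, with exact Poisson intervals, and a gene at 0 was set to a limit of 3 counts for folds. Folds between 2 sums have exact conditional 95% intervals. These intervals and the limit of 3 counts cover the counting of transcripts only and leave out spread between nuclei. Named genes were the rule and marker genes, the members of highest CPM in each list with defining members at 0, and the 25 largest and 10 lowest folds over hem. Library sums over all retained nuclei were tested in R 4.3.3 with edgeR 4.0.16 (quasi-likelihood, TMM scaling, filterByExpr, Benjamini-Hochberg at 0.05), after the script was checked on simulated counts, with DESeq2 1.42.0 as an alternative. P-values rest on 2 libraries a group. The SE printed for an edgeR log2 ratio was its absolute value divided by the square root of the F statistic. Doublets were called per library with scrublet in scanpy 1.11.5 at an expected rate of 5% and were kept. Coordinates come from GENCODE on GRCm39, and promoters from RefSeq on GRCm38.p6. A few genes that the rule names are not reported here.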

Additional observations from a re-analysis of the deposited data

Results flagged for a closer look

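Barcodes with fewer than 1500 transcripts, which no comparison used, held *Ttr* at 31.0 CPM in KO2. The same class of barcodes held 2.67 CPM in KO1, 2.91 CPM in C1 and 0.695 CPM in C2. The value drew attention because it lies in barcodes outside the main measurement and above both controls. No such barcode reached 10 *Ttr* transcripts. The other retained nuclei of KO2, at 15.5 CPM, were also above those of the other libraries, at 0.0270 to 0.345 CPM. The origin of these transcripts was not tested.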

How the results depend on the processing

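The share of choroid plexus nuclei kept its direction with at least 5 or 20 *Ttr* transcripts, with *Ttr* scaled to depth, without the *Gad* and *Col1a* limits, with the depth window on mapped reads and without doublet calls, and 93.2 to 96.8% of members lay in KO2 in each. Leaving out single libraries gave differences of -0.0164 to 1.05 percentage points, and the negative value was without KO2. With the replicate block the mean paired difference was 0.517 percentage points, from -0.00711 and 1.04 in the pairs (exact sign-flip p = 1.00, smallest possible 0.5). The genotype test called 0 genes in edgeR with the replicate block, with RLE scaling and without the members, 70 without a filter on low counts and 205 in DESeq2. Leaving out single libraries gave 0 to 188 calls, 188 without KO1 and 1 without KO2, where the knockout arm was 1 library assumed to vary like the controls. Without KO2, *Ttr*, *Dnmt1* and *Sst* changed sign on the log2 scale. Over the libraries left out, *Ttr* ran from -0.35 to 5.58, *Dnmt1* from -0.29 to 0.079 and *Sst* from -0.70 to 1.87, and the cause was not tested. Same-numbered libraries did not deviate together (correlation of deviations -0.0581 over 21516 genes, 2 pairs), so the numbers were not taken to pair animals. Replicate 1 libraries held *Xist* at 1157 to 1281 CPM and replicate 2 libraries at 0.0887 to 4.13 CPM, so number and sex coincide. Genes apart from hem numbered 1167 in all (753 higher) at a minimum of 20 CPM and 507 (308 higher) at 100 CPM, and 499 were lower without members holding excitatory neuron transcripts. The other alternatives stayed within 1.5 times of 761, 476 and 285. No paired analysis was possible for that contrast because it uses 1 library. With 8 members outside KO2, a gene at 0 there may have stood at up to 28.6 CPM, a limit that leaves out spread between nuclei.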
